A study of Rattus norvegicus with 8 samples.

Results

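The enzymes described here handle glutathione, thioredoxin and reactive oxygen. Their probe sets were chosen by name from the platform annotation, as those with a single gene symbol beginning with Gsta, Gstm, Gstp, Gstt, Gsto, Mgst, Gpx, Prdx or Txnrd, or equal to Gclc, Gclm, Gss, Gsr, Ggt1, Nqo1, Cat, Sod1, Sod2, Sod3, Txn1, Txn2, Srxn1, Nfe2l2 or Keap1. They were 58 probe sets of 51 genes, out of 31099 probe sets on the array, and the choice went by symbol alone, although earlier results of these arrays were known. The arrays carried kidney RNA of male Wistar rats labelled as 8 weeks old, with 1 rat per array. In the HP group 4 rats had received a diet with 1.2% phosphorus for 24 days, and in the control group 4 rats had received the AIN-93G diet with 0.3% phosphorus for the same time. The added phosphorus came as KH2PO4 in place of corn starch, so the HP diet also held more potassium, and both diets held t-butylhydroquinone, an inducer of NRF2. The authors picked rats that were average for their group, which limits the spread between arrays to that of selected animals.

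Glutathione is a tripeptide that is made in the cytosol by glutamate-cysteine ligase and glutathione synthase. Glutathione peroxidases and peroxiredoxins use it or thioredoxin to remove peroxides, glutathione transferases attach it to reactive compounds, and reductases regenerate both thiols with NADPH. NRF2, a transcription factor that KEAP1 holds back in unstressed cells, drives many of these genes through antioxidant response elements, and the proximal tubule of the kidney is rich in glutathione and in the enzyme that takes it apart.

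Each probe set has 1 deposited value per array, on a log scale whose base is unstated and is assumed to be 2. The summary method of the authors (DFW) shrinks the spread of a probe set, so a difference is not a log2 fold change. Differences are HP minus control and are given in millionths of a unit of this scale, or as standardized differences, in which the unit is the pooled SD within diets. The median absolute difference was 2.05 millionths over the 58 probe sets and 1.53 millionths over the 31042 probe sets tested. The antioxidant probe sets were brighter than most, with a median value of 9.40, compared with 7.06 over all tested. The 14 proximal tubule markers averaged 12.15 on the HP arrays and 12.15 on the control arrays, in the upper part of the scale, and mark the tissue as kidney. The kidney was measured as a whole, and fewer cells of a type and less RNA per cell cannot be told apart.

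Most antioxidant genes, 57 of the 58 probe sets, did not pass the test between the diets. Of the 58 probe sets, 1 passed as higher in HP rats by limma, that of Gpx7, a peroxidase of the endoplasmic reticulum, compared with 2.95% of all probe sets tested. None passed as lower by limma, compared with 1.13% of all, while 6 were higher (9.53% of all) and 7 lower (9.45% of all) at an unadjusted p under 0.05, together 22.4% of the 58 against 19% of all probe sets. Rank products, the method named in the study, passed 5 as higher (Gpx7, Gpx2, Prdx4, Gstm1 and Gstm5) and 0 as lower, compared with 3.4% and 2.3% of all probe sets. The diets did not overlap for 10 probe sets (17.2%, compared with 12.9% of all tested), with the HP arrays on top for 4 (7.09% of all) and below for 6 (5.81% of all). The standardized differences ran from -3.04 (Txn2) to 3.42 (Gpx7), with a median of -0.41 over the 58 and of -0.21 over all tested, and 34 of the 58 were below 0.

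The direction of small differences depended on the scaling. The medians of the 8 arrays spanned 185 millionths, and centring each array on its median moved every difference by -61.1 millionths, after which 53 of the 58 probe sets were below 0. The median absolute difference over all probe sets tested was 1.53 millionths, so this shift put most probe sets of the array below 0. Centring also put the spread of the array medians into the values of each probe set. The difference of the brighter Keap1 probe set went from -1.26e-06 to -6.23e-05 on the deposited scale. Its standardized difference only went from -0.85 to -0.95. After centring the adjusted p of the probe sets named here thus went with the size of the difference. Of all calls in the deposited values 72.3% were higher in HP rats (915 higher, 350 lower), and after median centring 80.4%. After quantile normalization it was 6.3% (339 higher, 5043 lower), over the 15784 probe sets that could still be tested.

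**Figure D1:**
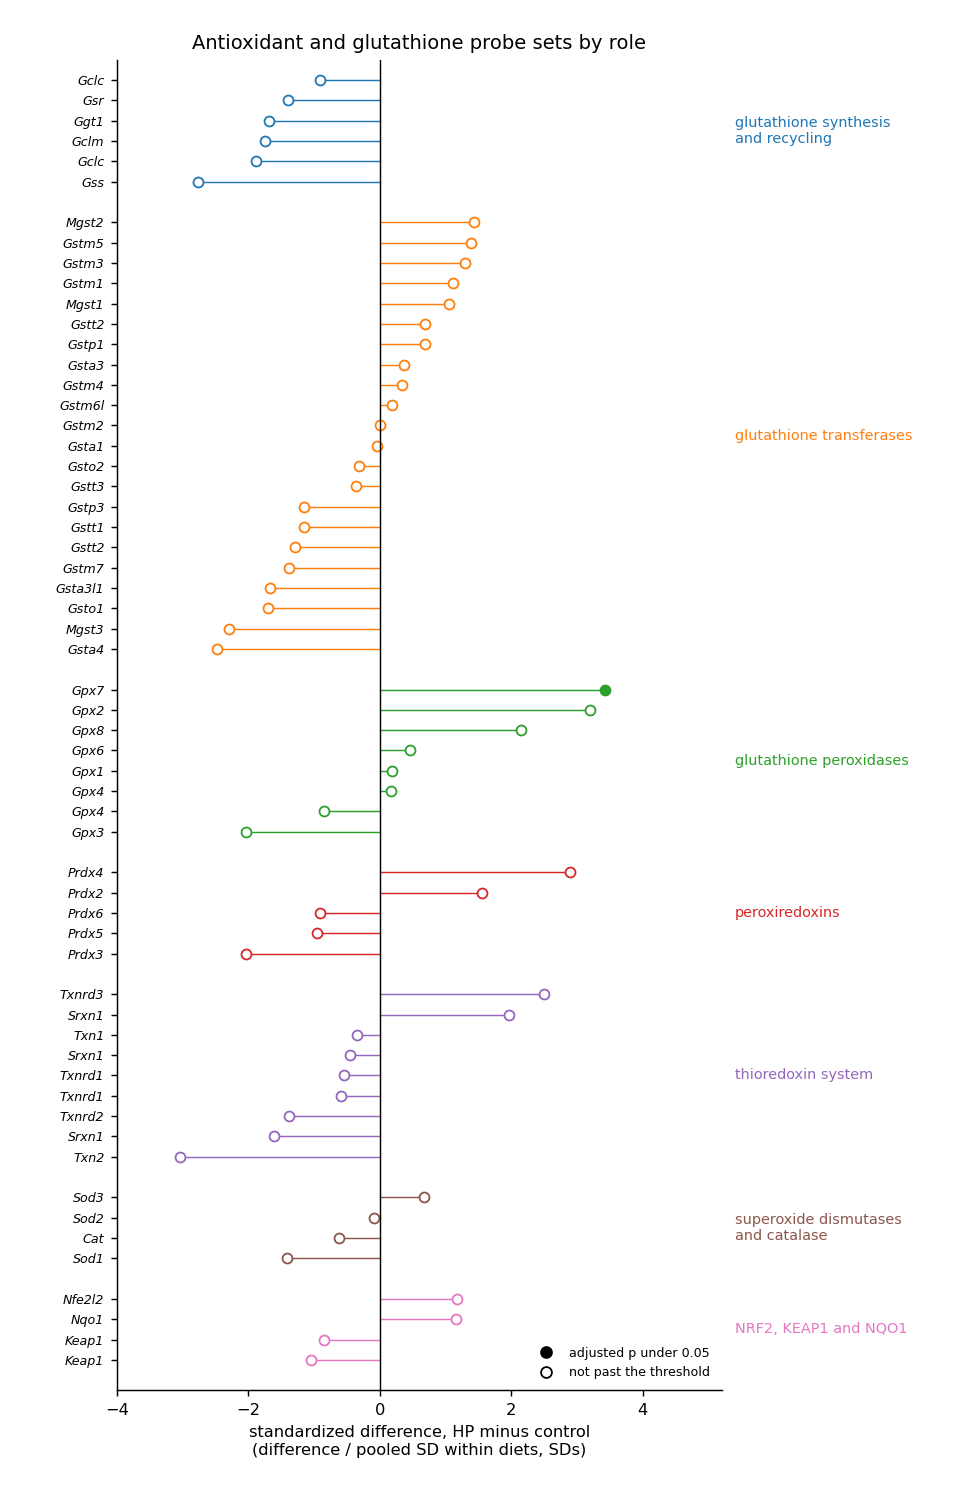
Standardized differences (HP minus control, in pooled SDs within diets) of the 58 probe sets, 1 row each, grouped by role. The filled point (Gpx7, 3.42) is the only probe set past an adjusted p of 0.05, and all 6 probe sets of glutathione synthesis and recycling lie left of 0, as do 57.7% of all probe sets tested.

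The promoters of the members were searched for the core of the antioxidant response element, TGACNNNGC, on both strands, in windows from 250 bases before to 50 bases after each RefSeq start (build GRCr8). Of the 51 genes 43 had a window, and 12 of these (27.9%) held the core, compared with 12.1% of all 33469 windows and 13.1% of 27457 genes. The core was found in Gclm, Gpx2, Gsta1, Gsta3, Gstm5, Gstm7, Gstp1, Nfe2l2, Prdx4, Prdx5, Sod2 and Txnrd1. Among the 13 probe sets of these genes 0 passed in limma, 2 were higher and 0 lower at an unadjusted p under 0.05 (15.4%), and 3 passed as higher by rank products. Among 36 probe sets of genes without the core in the window 1 passed in limma, 3 were higher and 7 lower at an unadjusted p under 0.05 (27.8%), and 2 passed as higher by rank products. Over all probe sets 19% had an unadjusted p under 0.05 (9.53% higher and 9.45% lower). In limma 2.95% of all passed as higher and 1.13% as lower, and by rank products 3.4% and 2.3%. The difference between the 2 sets was not tested. A match is only a run of letters, and its absence says only that these letters were not in the window. Printed below are the windows of Gpx2 and Prdx4, the genes with the core whose HP arrays all lay above the control arrays, and of Gclm, a gene of glutathione synthesis with the core whose arrays overlapped. Capitals mark the core, which lies on the opposite strand in all 3. The Gpx2 window is chr6:101229984-101230283 (minus strand), that of Prdx4 is chrX:43878483-43878782 (plus strand) and that of Gclm is chr2:213031885-213032184 (plus strand).
Gpx2: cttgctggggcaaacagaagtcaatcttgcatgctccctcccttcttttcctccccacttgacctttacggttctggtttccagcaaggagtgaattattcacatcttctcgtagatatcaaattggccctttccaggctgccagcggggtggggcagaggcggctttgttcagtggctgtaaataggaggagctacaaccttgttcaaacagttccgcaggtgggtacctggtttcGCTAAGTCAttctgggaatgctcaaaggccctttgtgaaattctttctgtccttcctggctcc
Prdx4: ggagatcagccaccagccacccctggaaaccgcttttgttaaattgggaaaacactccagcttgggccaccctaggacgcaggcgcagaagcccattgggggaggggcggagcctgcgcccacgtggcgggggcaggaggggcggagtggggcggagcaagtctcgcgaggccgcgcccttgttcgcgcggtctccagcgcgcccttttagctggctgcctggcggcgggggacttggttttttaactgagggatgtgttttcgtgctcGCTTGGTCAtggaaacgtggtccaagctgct
Gclm: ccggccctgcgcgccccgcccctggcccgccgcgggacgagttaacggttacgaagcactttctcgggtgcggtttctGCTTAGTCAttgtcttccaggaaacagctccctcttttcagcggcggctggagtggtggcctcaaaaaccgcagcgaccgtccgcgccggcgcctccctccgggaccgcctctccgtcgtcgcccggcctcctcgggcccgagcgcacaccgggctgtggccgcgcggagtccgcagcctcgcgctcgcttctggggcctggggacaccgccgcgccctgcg
In Gpx2 the core begins 13 bases before the start, in Gclm 172 bases before it, and in Prdx4 at base 20, counted from the start as base 1.

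The largest positive standardized differences were those of the peroxidases Gpx7 (3.42), Gpx2 (3.20) and Prdx4 (2.90), followed by that of the reductase Txnrd3 (2.49). Over all glutathione peroxidases the median was 0.32, and over the peroxiredoxins -0.92. Gpx7, which acts in the oxidative folding of proteins in the endoplasmic reticulum, had values of 7.451405, 7.451435, 7.451384 and 7.451390 on the HP arrays, against 7.451320, 7.451358, 7.451304 and 7.451313 on the control arrays. All HP arrays were above all control arrays, and the highest array of each diet was replicate 2. The difference was 79.8 millionths (SE 16.5, 95% interval 42.8 to 117), a standardized difference of 3.42, and passed with an adjusted p of 0.042 (exact two-sided permutation p = 0.029, the smallest that 70 arrangements allow). The call held without control replicate 2 (adjusted p = 0.044) and was lost without each of the other 7 arrays, where it reached at most 0.109 (control replicate 3 left out). It was also lost without moderation of the variances (adjusted p = 0.073) and after median centring, where the difference was 18.7 millionths (adjusted p = 0.99). With quantile normalization Gpx7 had no spread left to test.

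Prdx4, the peroxiredoxin of the endoplasmic reticulum, lay close to Gpx7 in size. Its HP arrays were 66.5, 129, 48.1 and 68.8 millionths from the control mean, against -19.6, 16, 4.02 and -0.36 on the control arrays. The groups did not overlap, and the lowest HP array was replicate 3. The difference of 78.1 millionths (SE 19.1, standardized difference 2.90) did not pass (adjusted p = 0.068), but it passed by rank products, without HP replicate 2 (0.045) and with quantile normalization (0.0024). It did not pass in the 7 fits that left out another array (up to 0.151 without control replicate 1) or after median centring (0.99). Gpx8, a membrane-bound peroxidase of the same compartment, lay 57.8, 42.5, 17.9 and 27.4 millionths from the control mean on the HP arrays, against -1.2, -16, -5.61 and 22.8 on the control arrays. Here control replicate 4 was above the lowest HP array, and the standardized difference of 2.14 (adjusted p = 0.144) turned to -0.34 after median centring. Gpx7, Gpx8 and Prdx4 are the peroxidases of the endoplasmic reticulum, a grouping made after their values were seen. Each of the 3 was higher at an unadjusted p under 0.05 (9.53% of all probe sets), and 1 of the 3 passed the adjusted test. Their median standardized difference was 2.90. Since the values led to the grouping, these figures say nothing about the compartment as such. The microsomal transferases, which sit in the membrane of the same compartment, did not run together, with standardized differences of 1.05 (Mgst1, adjusted p = 0.96), 1.43 (Mgst2, 0.311) and -2.29 (Mgst3, 0.156).

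Gpx2, a selenium-dependent peroxidase best known from the epithelium of the gut, had the largest difference of the 58 in the deposited values. It measured 9.247530, 9.247796, 9.245141 and 9.246684 on the HP arrays, against 9.242742, 9.243810, 9.244183 and 9.241783 on the control arrays. No control array reached the HP arrays, with HP replicate 3 the closest to the controls. The difference was 0.00366 (SE 0.000808, standardized difference 3.20) and just missed the threshold in limma (adjusted p = 0.051). It passed with 1 probe set per gene (0.037), without the dimmest 25% of probe sets (0.043), without HP replicate 3 (0.038) and by rank products. It also passed with quantile normalization (0.0094) and after median centring (2.4e-07), where the adjusted p goes with the size of the difference. It did not pass in the 7 fits that left out another array (up to 0.128 without HP replicate 1), without moderation (0.085), with array weights (0.052), with trend and robust moderation (0.053) or with the replicate number as a block (0.143). Gpx2, Gpx8 and Prdx4 are described because of their values.

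**Figure D2:**
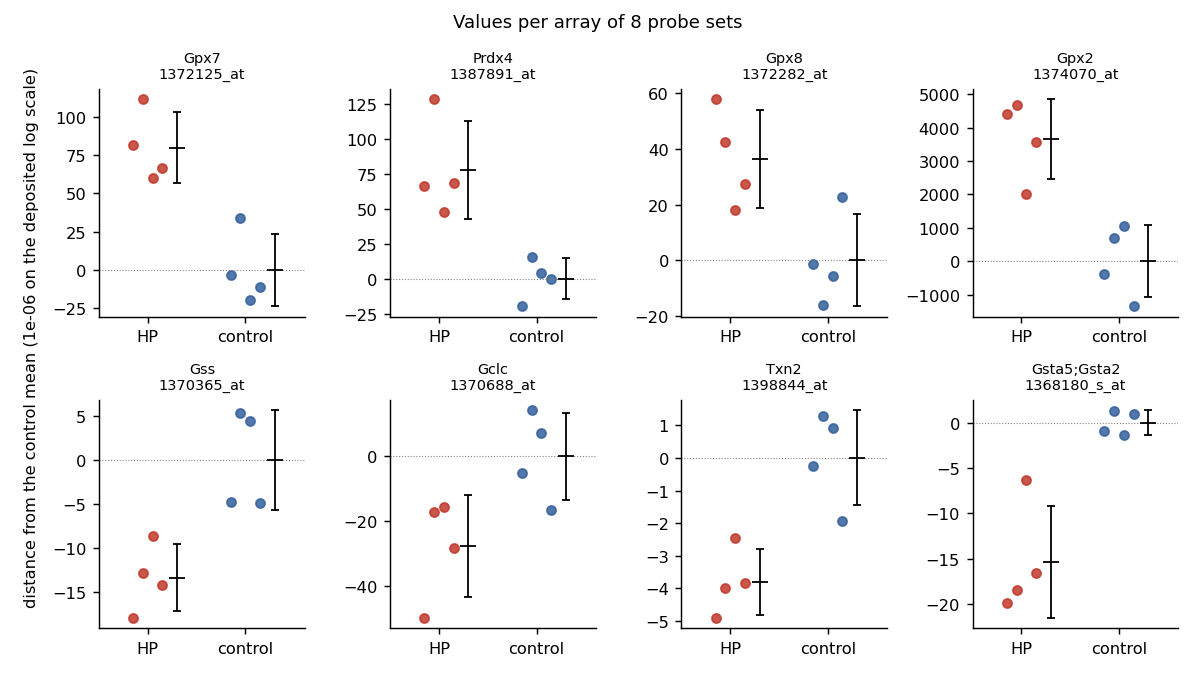
Distance of each array from the control mean (millionths of a unit of the deposited log scale) for 8 probe sets, with HP arrays left and control arrays right in each panel, and the mean and SD of each diet as bars (n = 4 each). The diets do not overlap for Gpx7, Prdx4, Gpx2, Gss, Txn2 and Gsta5;Gsta2, and overlap for Gpx8 and Gclc. The HP side of Gpx8 falls below the control side after median centring.

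The abundant peroxidases gave small differences that did not pass. Gpx1, the cytosolic selenoenzyme, lay 1.65, -0.628, -1.02 and 0.792 millionths from the control mean on the HP arrays, against 0.633, -0.948, -0.677 and 0.993 on the control arrays. The groups overlapped throughout, and the standardized difference was 0.18 (adjusted p = 0.94, 95% interval -1.50 to 1.87 SDs), or -0.92 after median centring. Gpx3, the secreted peroxidase that the proximal tubule supplies to plasma, was the brightest of the 58 probe sets, at a mean of 14.08. Its HP arrays were -0.4, -0.26, -0.14 and -0.17 millionths from the control mean, against 0.18, -0.08, -0.07 and -0.03 on the control arrays. All HP arrays were below all control arrays, and the difference was -0.242 millionths (SE 0.0844), or -2.03 SDs. It missed the threshold (adjusted p = 0.72). Moderation of the variances raised its small SE, and the moderated t was -0.87. Gpx4, which removes lipid peroxides, had standardized differences of 0.18 (adjusted p = 0.94) and -0.85 (0.57) in its probe sets, and that of Gpx6 was 0.46 (0.79).

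Prdx3, the peroxiredoxin of mitochondria, is described because its diets did not overlap either. Its HP arrays were -0.123, -0.233, -0.383 and -0.123 millionths from the control mean, against 0.0775, 0.0675, -0.0925 and -0.0525 on the control arrays. The HP arrays were all below the controls, but the difference of -0.215 millionths (standardized difference -2.03) did not pass (adjusted p = 0.75). Its SE of 0.0749 was also raised by moderation, and the moderated t was -0.78. For Prdx2, Prdx5 and Prdx6 the standardized differences were 1.55, -0.95 and -0.92, with adjusted p of 0.366, 0.523 and 0.565. A probe set assigned to both Prdx1l1 and Prdx1, which the choice by single symbol leaves out, had 0.20 (adjusted p = 0.94). Prdx2 is abundant in red cells, as are Cat, Sod1 and Gpx1. The 4 red cell markers measured had a mean value of 8.746135 to 8.749929 on the HP arrays and 8.749226 to 8.751845 on the control arrays. In limma 0 of the 4 markers passed in each direction. Of these markers 3 were lower both at an unadjusted p under 0.05 (9.45% of all probe sets) and by rank products (2.3% of all). Their part in the values of these enzymes was not tested.

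The enzymes that make and recycle glutathione all lay on the lower side in HP rats, but none passed. Of 6 probe sets of 5 genes, 0 passed in limma or by rank products, and 3 were lower at an unadjusted p under 0.05 (9.45% of all probe sets). All 6 were below 0 (57.7% of all), with a median standardized difference of -1.72 (-0.21 over all). Gss, glutathione synthase, was -18, -12.9, -8.64 and -14.2 millionths from the control mean on the HP arrays, against -4.82, 5.37, 4.41 and -4.95 on the control arrays. Its groups did not overlap, and the difference was -13.4 millionths (SE 3.42), a standardized difference of -2.77 (adjusted p = 0.078). Gss and Ggt1 are described because of their values and place in the group.

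Gclc, the catalytic subunit of glutamate-cysteine ligase and the rate-limiting step of the synthesis, had 2 probe sets. The brighter lay -14.1, -4.72, 0.17 and -6.35 millionths from the control mean on the HP arrays, against 0.18, 6.01, 4.68 and -10.9 on the control arrays. Its groups overlapped, with control replicate 4 low among the controls, and the standardized difference was -0.91 (adjusted p = 0.53, 95% interval -2.50 to 0.67 SDs). The other Gclc probe set had a standardized difference of -1.89 (adjusted p = 0.192). Gclm, the modifier subunit, was -0.668, -1.41, -0.627 and -1.94 millionths from the control mean on the HP arrays, against -0.368, 0.953, -0.637 and 0.0525 on the control arrays. A single control array reached into the HP range, and the standardized difference was -1.75 (adjusted p = 0.29, 95% interval -3.60 to 0.10 SDs).

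Gsr, which reduces oxidized glutathione, was -18.3, -24.7, -1.67 and -13 millionths from the control mean on the HP arrays, against 5.38, -14.5, 10.9 and -1.78 on the control arrays. The groups overlapped, and the standardized difference was -1.39 (adjusted p = 0.325, 95% interval -2.98 to 0.19 SDs). Ggt1, the brush border enzyme that cleaves extracellular glutathione, had a standardized difference of -1.69 (adjusted p = 0.237). The 14 proximal tubule markers, the segment rich in these enzymes, had a median standardized difference of -1.24, with 11 of 14 below 0. None of the 14 passed in limma or by rank products, and 3 were lower at an unadjusted p under 0.05 (9.45% of all probe sets). The mean value of the 14 was 12.152013 to 12.152031 on the HP arrays and 12.152025 to 12.152043 on the control arrays. The part of the proximal tubule in the values of the glutathione genes was not tested.

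The glutathione transferases split evenly in the deposited values, with 11 of 22 probe sets above 0 and 11 below, while 20 were below 0 after median centring. None of the 22 passed in limma, and 2 were lower at an unadjusted p under 0.05 (9.45% of all probe sets), those of Gsta4 and Mgst3. Gsta4, which conjugates lipid aldehydes, was -13.3, -8.68, -5.26 and -11.3 millionths from the control mean on the HP arrays, against 4.69, -5.44, -0.758 and 1.5 on the control arrays. Control replicate 2 fell just inside the HP range, and the standardized difference of -2.48 (adjusted p = 0.104) turned to 0.71 after quantile normalization. Mgst3, a microsomal member of the family, was -1.71, -3.19, -1.54 and -1.32 millionths from the control mean on the HP arrays, against 0.565, 0.135, 0.525 and -1.23 on the control arrays. These groups just missed each other, with replicate 4 of each diet the closest pair, and the standardized difference was -2.29 (adjusted p = 0.156). Gsta4, Mgst3, Gstm1 and Gstm5 were picked out after their values were seen.

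By class, the mu transferases had 6 of 7 probe sets above 0 in the deposited values, the alpha 1 of 4, the theta 1 of 4, the pi 1 of 2, the omega 0 of 2 and the microsomal 2 of 3. Gstm1, the main mu enzyme, lay 675, 636, 28.7 and 589 millionths from the control mean on the HP arrays, against -471, 223, 652 and -404 on the control arrays. Its control arrays spanned more than the gap between the diets, and its difference of 482 millionths (SE 308), the next largest after Gpx2, was a standardized difference of 1.11 (adjusted p = 0.44). Gstm5, another mu enzyme, was 54.9, 212, 51.4 and 93.1 millionths from the control mean on the HP arrays, against -21.8, 22.6, 86.7 and -87.5 on the control arrays. Control replicate 3 lay within the HP range, and the standardized difference was 1.38 (adjusted p = 0.326). Both passed by rank products as higher, since that method ranks differences without dividing them by the spread.

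A probe set shared by Gsta5 and Gsta2, alpha transferases of liver and kidney, was left out by the rule on single symbols. It is given apart from the 58 and was picked out after its values were seen. It was -19.9, -18.5, -6.36 and -16.6 millionths from the control mean on the HP arrays, against -0.935, 1.34, -1.4 and 1 on the control arrays. Its groups did not overlap, and the control arrays lay close together. The difference of -15.4 millionths (SE 3.15, standardized difference -3.45) passed as lower in limma (adjusted p = 0.042). That call held without HP replicate 3 (0.0089), was lost without each of the other 7 arrays, where it reached at most 0.106 (control replicate 2 left out), and was lost without moderation (0.072), after median centring (0.98) and with the replicate number as a block (0.127). Members of these families are close in sequence, and signal of a paralog in a probe set cannot be told apart here. Of the 58 probe sets 56 carry the plain suffix for a set specific to its transcript.

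In the thioredoxin system 0 of 9 probe sets passed in limma or by rank products. At an unadjusted p under 0.05, 2 were higher (9.53% of all probe sets) and 2 lower (9.45% of all). Txn2, the thioredoxin of mitochondria, was -4.9, -4, -2.47 and -3.85 millionths from the control mean on the HP arrays, against -0.245, 1.3, 0.905 and -1.95 on the control arrays. Its groups did not overlap, and the difference of -3.81 millionths (SE 0.885, standardized difference -3.04) gave an adjusted p of 0.068. It passed as lower with 1 probe set per gene (0.048) and without control replicate 4 (0.048), and did not pass in the 7 fits that left out another array (up to 0.162 without control replicate 3) or after median centring (0.975). Txnrd3, a reductase best known from the testis, was 1.57, 1.74, 0.981 and 3.05 millionths from the control mean on the HP arrays, against 0.482, -0.753, -0.109 and 0.381 on the control arrays. The HP arrays were all above the control arrays, and the standardized difference was 2.49 (adjusted p = 0.138) in the deposited values, -0.91 with centred arrays and -1.15 with quantile normalization. Txn2 and Txnrd3 are described because of their values.

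**Figure D3:**
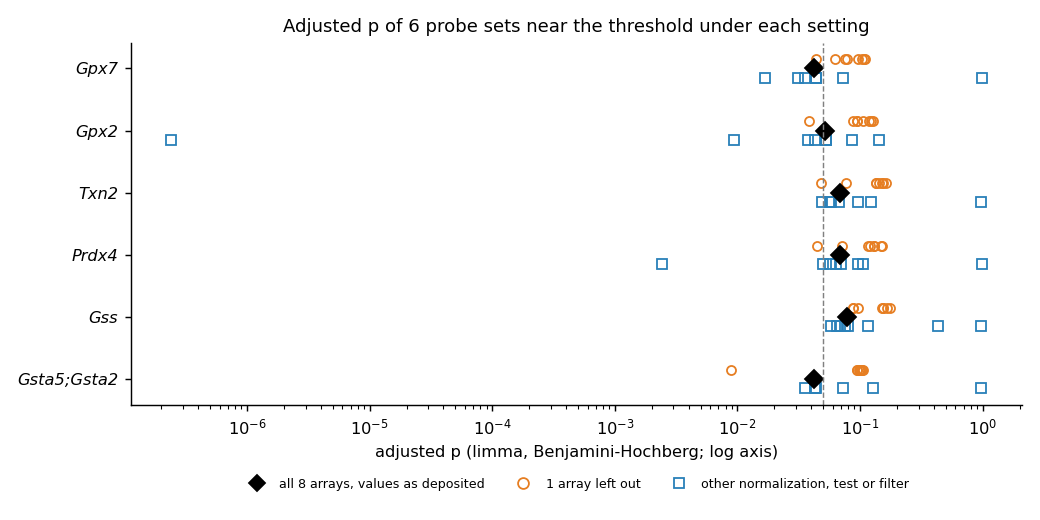
Adjusted p of 6 probe sets near the threshold (log axis) with all 8 arrays, with 1 array left out and under another normalization, test or filter. The dashed line is 0.05. Gpx7 and Gsta5;Gsta2 cross it to the right in 7 of 8 fits without an array, and the value of Gpx2 farthest left is that after median centring (2.4e-07).

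Srxn1, sulfiredoxin, which repairs overoxidized peroxiredoxins and is a target of NRF2, had 3 probe sets that did not run the same way. The brightest was 6.44, 8.74, 0.2 and 5.79 millionths from the control mean on the HP arrays, against 0.757, 0.987, -1.48 and -0.265 on the control arrays. HP replicate 3 lay among the controls and the other HP arrays above them, with a standardized difference of 1.97 (adjusted p = 0.178) that passed as higher without HP replicate 3 (0.031) and not in the 7 fits that left out another array (up to 0.339 without control replicate 3), and was -0.86 after median centring. In the other Srxn1 probe sets the standardized differences were -1.60 (adjusted p = 0.259), with the HP arrays all below the controls, and -0.45 (0.79). Txnrd1, the cytosolic thioredoxin reductase, was -1.12, -0.263, 0.767 and -1.69 millionths from the control mean on the HP arrays, against 0.628, -1.01, 1.12 and -0.733 on the control arrays. The groups overlapped, with a standardized difference of -0.55 (adjusted p = 0.755, 95% interval -2.24 to 1.15 SDs), and the other Txnrd1 probe set had -0.59 (0.714). Txnrd2 of the mitochondria had -1.38 (0.356) and cytosolic Txn1 had -0.34 (0.986).

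The transcription factor axis showed no call. Nfe2l2, which encodes NRF2, was 54.4, 39.4, 13.9 and 14.6 millionths from the control mean on the HP arrays, against 42.3, -12.9, -30.8 and 1.41 on the control arrays. Control replicate 1 lay within the HP range and the other controls below it, with a standardized difference of 1.17 (adjusted p = 0.414, 95% interval -0.41 to 2.76 SDs), or -0.38 after median centring. Keap1, its inhibitor, was 0.189, -0.324, -2.95 and -1.94 millionths from the control mean on the HP arrays, against 0.108, 0.0215, -1.91 and 1.79 on the control arrays. The groups overlapped, with a standardized difference of -0.85 (adjusted p = 0.583, 95% interval -2.49 to 0.79 SDs), or 1.41 after quantile normalization, and the other Keap1 probe set had -1.05 (0.466). Nqo1, the quinone reductase that is a widely used readout of NRF2, was 3.02, 15, 4.58 and 5.55 millionths from the control mean on the HP arrays, against -2.2, -8, 7.48 and 2.73 on the control arrays. It overlapped between diets, with a standardized difference of 1.16 (adjusted p = 0.419, 95% interval -0.43 to 2.75 SDs). This was -0.89 with arrays centred on their medians and -3.20 with quantile normalization. With quantile normalization Nqo1 passed as lower (adjusted p = 0.011), as did 32% of all probe sets tested there.

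The enzymes that remove superoxide and hydrogen peroxide without glutathione gave no call, with 0 of 4 probe sets past the adjusted threshold or at an unadjusted p under 0.05 in limma, and 0 by rank products. Cat, catalase of the peroxisome, was -1.07, -3.02, 0.278 and -0.322 millionths from the control mean on the HP arrays, against 1.8, -2.32, -0.592 and 1.12 on the control arrays. The standardized difference was -0.63 (adjusted p = 0.701, 95% interval -2.26 to 1.00 SDs), with replicate 2 the lowest array of each diet. Sod1, the dismutase of the cytosol, was -1.49, -0.487, -0.467 and -0.658 millionths from the control mean on the HP arrays, against -0.198, 0.283, 0.662 and -0.747 on the control arrays. Control replicate 4 lay within the HP range, and the standardized difference was -1.41 (adjusted p = 0.429, 95% interval -3.37 to 0.55 SDs). Sod2, the manganese enzyme of mitochondria, was -0.33, -5.33, 2.18 and 2.39 millionths from the control mean on the HP arrays, against 1.56, -2.57, -0.03 and 1.04 on the control arrays. Replicate 2 was again the lowest in each diet, and the standardized difference was -0.10 (adjusted p = 0.967, 95% interval -1.70 to 1.50 SDs). Sod3, the secreted form, was 0.485, 7.25, -6.3 and 19.7 millionths from the control mean on the HP arrays, against -0.105, -1.16, -0.375 and 1.65 on the control arrays. Its HP arrays spread on both sides of closely spaced control arrays, with a standardized difference of 0.67 (adjusted p = 0.667, 95% interval -0.92 to 2.26 SDs), or -0.86 after median centring.

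**Figure D4:**
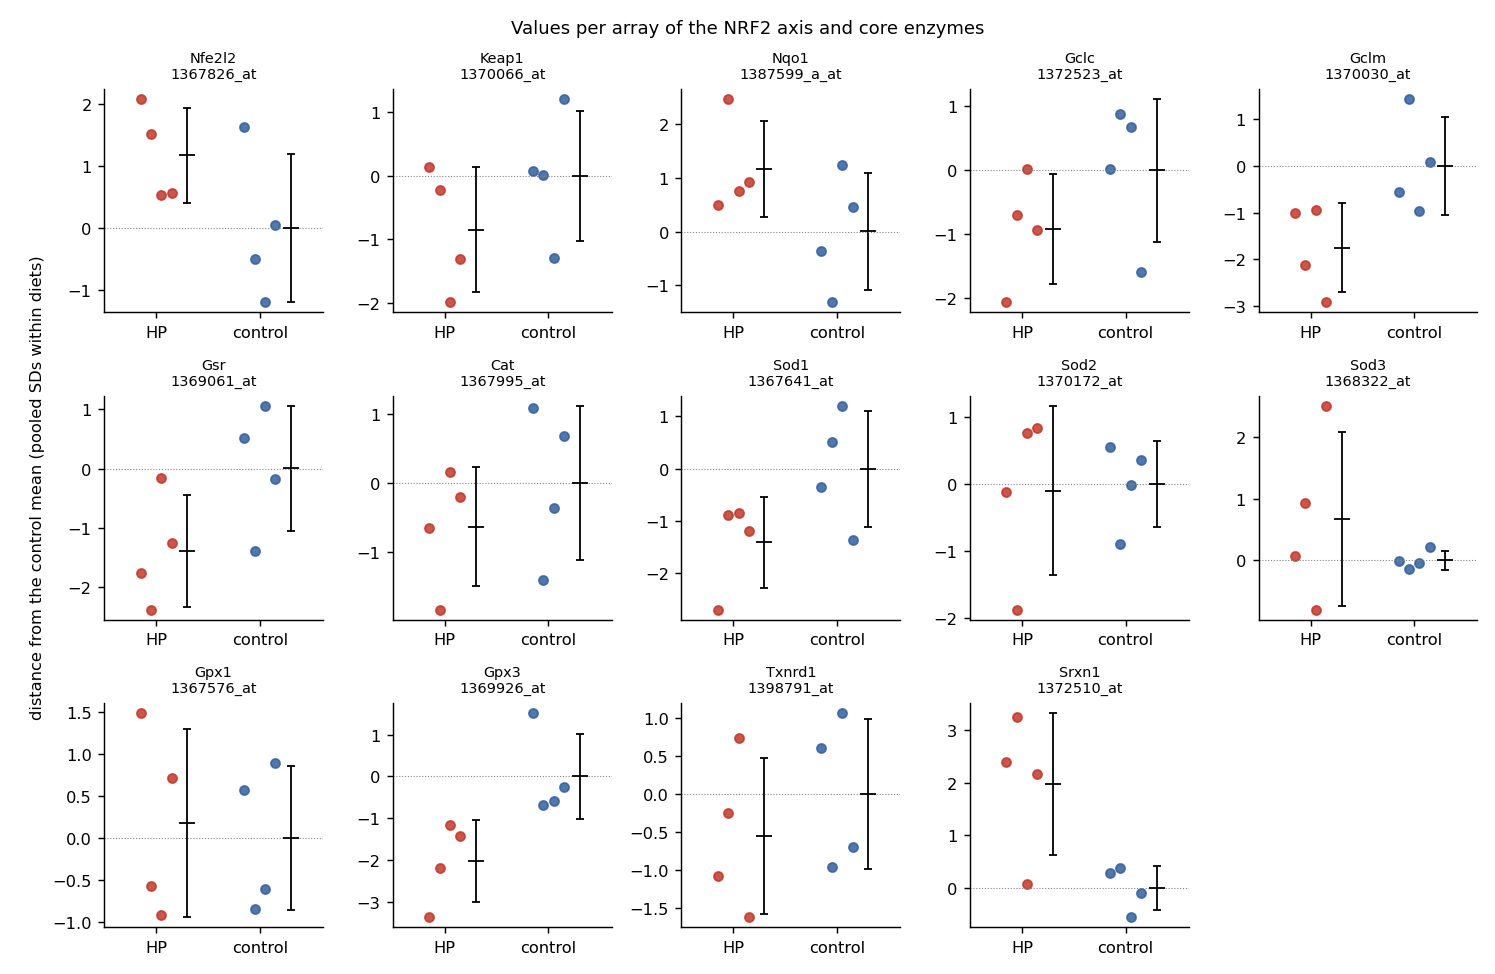
Distance of each array from the control mean, in pooled SDs within diets, for the brightest probe set of 14 genes of the NRF2 axis and the core antioxidant enzymes, with HP arrays left and control arrays right, and bars for the mean and SD (n = 4 each). The diets overlap in every panel except Gpx3. The direction of Nfe2l2, Nqo1, Sod3, Gpx1 and Srxn1 turns when arrays are centred on their medians. That of Keap1 and Nqo1 turns with quantile normalization, which left some of the 14 without a spread to test.

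Genes around these enzymes were taken from lists in which each gene entered with its brightest probe set, where 4.58% of all genes passed as higher and 1.23% as lower in limma. At an unadjusted p under 0.05, 9.53% of all probe sets tested were higher and 9.45% lower. Median centring put most probe sets of the array below 0. Of 30 other genes of glutathione metabolism 1 passed as higher and 3 as lower, and 22 were below 0 (30 after median centring). Glrx, a glutaredoxin that removes glutathione from proteins, was higher by 39.8 millionths (SE 6.77, adjusted p = 0.026), or -21.3 after median centring. Slc25a11, a mitochondrial oxoglutarate carrier, differed by -3.30 millionths (SE 0.468, adjusted p = 0.024), Oplah, which recycles oxoproline to glutamate, by -10.0 (SE 1.78, adjusted p = 0.029), and Cbs, an enzyme of cysteine synthesis, by -8.27 (SE 1.60, adjusted p = 0.037). Each of these 4 calls held in 1 or 2 of the 8 fits that left out an array, and the largest adjusted p was 0.103 for Cbs without control replicate 3. In the NADPH supply list 0 of 13 genes passed in either direction in limma or by rank products, 6 were lower at an unadjusted p under 0.05, and 10 were below 0 (13 after median centring), with a median standardized difference of -1.45 (-0.21 over all probe sets).

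Other NRF2 targets lay on both sides, with 9 above 0 and 10 below. Of 19 genes 2 passed as higher, Tsc22d1 and Cbr3, and 0 as lower. At an unadjusted p under 0.05 they were 5 higher (9.53% of all probe sets) and 3 lower (9.45%). By rank products 3 were higher (3.4% of all) and 3 lower (2.3%). The diets did not overlap for 7 of the 19 (12.9% of all). The HP arrays were above for 5 (7.09%), Hmox1 and Akr1b8 among them, and below for 2 (5.81%). The median standardized difference was -0.12. The mean value of the 19 was 9.010387 to 9.010472 on the HP arrays and 9.010212 to 9.010359 on the control arrays, without overlap. This mean follows a few genes. The largest positive differences were those of Akr1b8 (0.00158, adjusted p = 0.144), Tsc22d1 (0.000851) and Hmox1 (0.000371, adjusted p = 0.122). The largest negative was that of Osgin1 (-0.000126, adjusted p = 0.115). Only these 4 exceeded 0.0001, and the median absolute difference was 10.6 millionths. Me1, Pgd, Slc7a11 and Abcc4 also belong to the lists above. Tsc22d1, a leucine zipper protein, was higher by 851 millionths (SE 157, adjusted p = 0.032), and Cbr3, a carbonyl reductase, by 18.1 (SE 3.59, adjusted p = 0.038), which was -42.9 with centred arrays and -32.3 with quantile normalization. The Cbr3 call was lost without any of the 8 arrays, and that of Tsc22d1 without 6 of the 8 (adjusted p at most 0.091, control replicate 3 left out). None of 13 regulators and partners of NRF2 passed in limma or by rank products, and 1 was lower at an unadjusted p under 0.05.

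Among 28 genes of thiol repair and selenoprotein synthesis 2 passed as higher and 3 as lower. Sephs1, a member of the selenophosphate synthetase family, fell by 20.7 millionths (SE 2.15, adjusted p = 0.0068), Dio1, the selenoenzyme that activates thyroid hormone, fell by 80.3 (SE 9.42, adjusted p = 0.0089), and Sepsecs, which makes the selenocysteine transfer RNA, fell by 13.3 (SE 1.85, adjusted p = 0.015). The Sephs1 and Dio1 calls held without each array in turn, and that of Sepsecs in 7 of 8 cases (adjusted p = 0.0503 without control replicate 1). After median centring all 3 calls were lost (adjusted p = 0.975), although the differences were then larger (-81.8 for Sephs1, -141 for Dio1 and -74.4 for Sepsecs). Centring puts the spread of the array medians, 185 millionths from lowest to highest, into each of these probe sets. Txnl1, a thioredoxin-like protein, was higher by 7.31 millionths (SE 1.24, adjusted p = 0.027), or -53.7 after median centring. Selenom, a selenoprotein named because its direction turned, was higher by 7.54 millionths (SE 1.38, adjusted p = 0.033), or -53.5 after median centring. With quantile normalization Selenom was at -193 and passed as lower (adjusted p = 0.00012), as did 32% of all probe sets tested there. Both higher calls held in 2 of the 8 fits without an array, with adjusted p of up to 0.083 for Txnl1 (control replicate 3 left out) and 0.086 for Selenom (control replicate 2 left out). Of 14 metal carriers and metallothioneins 1 was higher and 2 were lower. Cp, the copper carrier ceruloplasmin, rose by 4679 millionths (SE 461, adjusted p = 0.0063), while Atp7b, a copper pump, differed by -1.74 (SE 0.0852, adjusted p = 0.025) and Ccs, which loads copper onto SOD1, by -5.74 (SE 1.09, adjusted p = 0.037). The Cp call held without each array in turn, and those of Atp7b and Ccs were lost without any 1 of the 8 (adjusted p up to 0.074 and 0.091, both without control replicate 3).

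Sources of reactive oxygen included genes of white cells. Of 19 genes 2 passed as higher and 0 as lower, with 3 higher and 3 lower at an unadjusted p under 0.05. By rank products 3 were higher (3.4% of all probe sets) and 1 lower (2.3%). Cybb, the catalytic subunit of the phagocyte NADPH oxidase, rose by 5955 millionths (SE 1023, adjusted p = 0.026), and Rac2, a GTPase of the same complex, rose by 672 (SE 132, adjusted p = 0.037). The Cybb call held in 3 of the 8 fits without an array and that of Rac2 in 2, with adjusted p of up to 0.080 and 0.101, both without control replicate 3. After median centring the calls of Cybb (adjusted p = 1.4e-21) and Cp (8.3e-13) held, and those of the other genes named from the pathway lists did not (adjusted p 0.975 to 0.983). The differences of Tsc22d1 and Rac2 were then still 789.6 and 610 millionths. The adjusted p after centring went with the size of the difference. Ptprc, a macrophage and monocyte marker at 6.20 SDs in the deposited values, had 1102 millionths and 0.975. Lyz2, a marker of the same list at 4.17 SDs, had 3049 millionths and 5.5e-05. A call kept or lost after centring thus says little about how far a gene stood out from its own spread.

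Markers of macrophages and of tubular injury differed between the same arrays. Of 14 macrophage and monocyte markers 10 passed as higher (4 to 11 without an array in turn), with Ptprc, Aif1, Mpeg1 and Cd53 in front, and their mean value was 8.139159 to 8.140078 on the HP arrays and 8.137965 to 8.138320 on the control arrays. After median centring the calls of Mpeg1, Cd53 and Lyz2 held, and the other 7 were lost (adjusted p 0.41 to 0.975), with all 10 differences still above 0. With quantile normalization all 10 passed as higher. Lyz2 is named for this result. Of 7 tubular injury genes 5 passed as higher (3 to 5 without an array in turn), led by Spp1, Vim, Havcr1 and Clu, and their mean was 8.635244 to 8.672222 on the HP arrays and 8.532833 to 8.547995 on the control arrays. Median centring kept the calls of these 4 and left 4 of the 7 genes above 0. Krt8, named because its direction turned, went from 31.7 to -29.4 millionths (adjusted p = 0.98). Without an array in turn the Clu call held in 4 of 8 fits and that of Krt8 in 2. No probe set has a value of 0 on this scale, so that no marker can be called absent. None of 7 loop and distal nephron markers and none of 4 endothelial markers passed in limma or by rank products, with 2 and 0 lower at an unadjusted p under 0.05. The part of these cell types in the values of Gpx7, Gpx2, Prdx4 and Cybb was not tested.

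**Figure D5:**
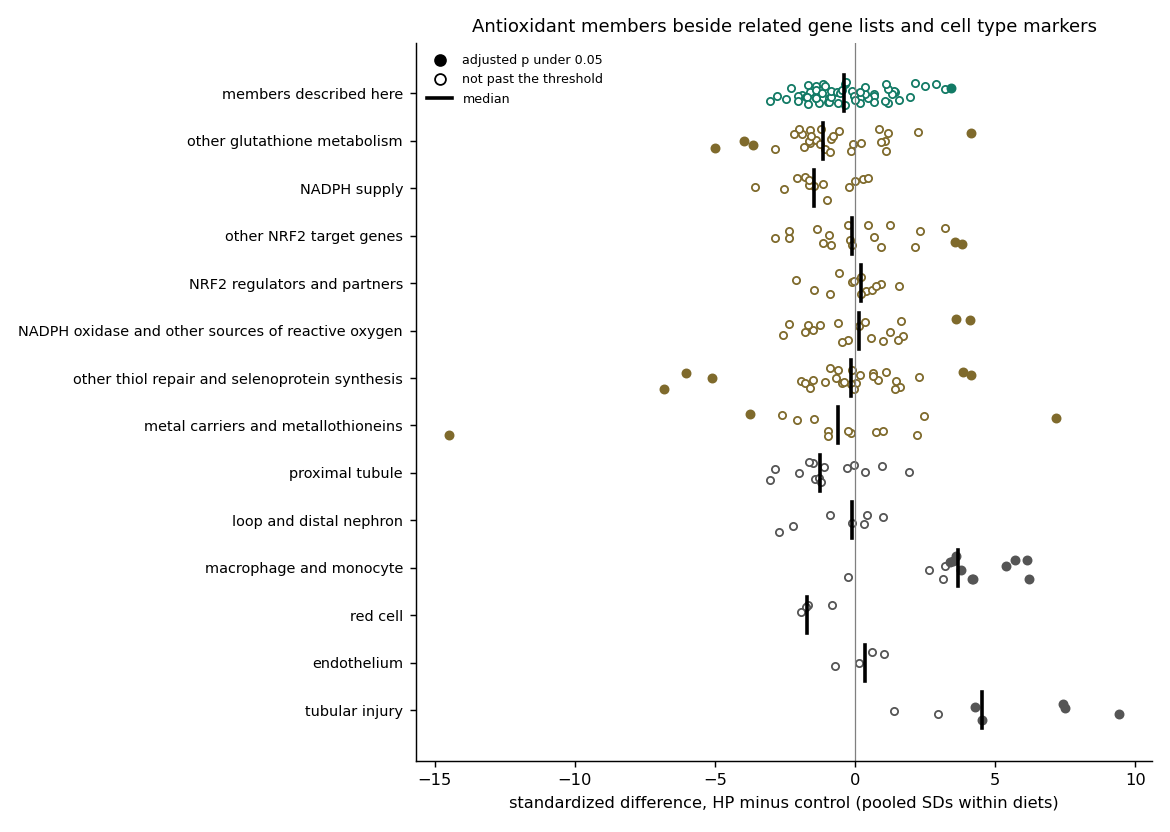
Standardized differences (HP minus control, in pooled SDs within diets) of the 58 antioxidant probe sets and of the genes of 13 lists, 1 point each, with filled points past an adjusted p of 0.05 and a bar at each median. The 58 centre on -0.41 with 1 filled point, while 10 of 14 macrophage markers and 5 of 7 tubular injury genes are filled on the right. After median centring, which puts most probe sets of the array left of 0, 53 of the 58 lie there. The macrophage markers stay right of 0 in 13 of 14 cases, 3 of them past the threshold.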

How the data were processed

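Kidney RNA of 8 rats was hybridized to Affymetrix whole-genome rat arrays, 4 per diet. The values deposited by the authors are on a log scale, taken as log2, and were made with the distribution free weighted method (DFW) over all arrays. Depth has no meaning for arrays, and their number limits the precision. Of 31099 probe sets, 57 Affymetrix controls were left out, and 31042 were fitted with diet as the only term in limma 3.58.1 (R 4.3.3), with empirical Bayes moderation and Benjamini-Hochberg adjustment over all. SEs are residual, and 95% intervals use the moderated SE. Rank products used 16 pairs of arrays and 1000 permutations (false discovery rate under 0.05), as the study names. The other steps used Python 3.11.15 (pandas 2.3.3, numpy 2.4.6, matplotlib 3.10.9, scipy 1.17.1). A single symbol was given to 20826 probe sets, several to 436 and none to 9780, and all 58 members were found in RefSeq. Named were the probe sets that passed, the brightest probe set of 14 hub genes, and up to 4 passing genes of each of the 13 lists (188 of 205 entries measured), and others as stated. Members and lists were chosen with earlier results of these data known. Fits were tested on simulated data. No pair of arrays was identical. Alternatives were other moderation, weights, a block, scalings, filters and each array left out.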

Additional observations from a re-analysis of the deposited data

How the results depend on the processing

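The count of antioxidant probe sets that passed as higher was 1 with all arrays (2.95% of all probe sets tested), that of Gpx7. It was 1, again Gpx7, with trend and robust moderation (2.88% of all), array weights (2.89%) and plain probe sets only. After median centring the count was also 1 (0.251% of all), but the probe set was that of Gpx2. The count was 0 without moderation (1.68% of all probe sets tested), 2 with 1 probe set per gene (5.61%) and 2 after quantile normalization (2.15%). It was 2 without the dimmest 25% of probe sets (4.11%), 5 by rank products (3.4%) and 6 by unadjusted p (9.53%). Without 1 array it ran from 0 to 2 (1.09% to 2.16% of all). The calls were then Gpx7 without control replicate 2, Prdx4 without HP replicate 2, and Gpx2 and Srxn1 without HP replicate 3. The count that passed as lower was 0 (1.13% of all), and it was 1 with 1 probe set per gene (1.91%) and 1 with the probe sets of several symbols. After quantile normalization it was 2, in a setting where 32% of all probe sets tested passed as lower. It was 7 by unadjusted p (9.45%) and 0 to 1 without 1 array (0.254% to 0.705%). Quantile normalization left 21 of the 58 probe sets with a spread to test, and 1 probe set per gene left 51. Of the 28 named probe sets 18, Gpx7 among them, had no spread to test with quantile normalization. Among the 28 named probe sets the standardized difference changed sign after median centring for Nfe2l2 (-0.38), Nqo1 (-0.89), Sod3 (-0.86), Gpx1 (-0.92), Srxn1 (-0.86), Gpx8 (-0.34) and Txnrd3 (-0.91), after quantile normalization for Keap1 (1.41), Nqo1 (-3.20), Gsta4 (0.71) and Txnrd3 (-1.15), and with array weights for Sod2 (0.048). Without 1 array it ran from -0.41 to 0.82 for Sod2 and from -0.30 to 0.58 for Gpx1. Centring takes 61.1 millionths from each difference, which is more than these differences, and the cause of the other changes was not tested.

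With the replicate number as a block, 1 probe set passed as higher and 0 as lower, while over all probe sets 254 passed as higher and 115 as lower, compared with 915 and 350 without it. Arrays of different diets with the same number correlated at 0.0015 to 0.121 in their deviations, and with different numbers at -0.165 to 0.084. The numbers are only numbers, and 5 of 8 arrays correlated best with their own. Each pair of arrays enters that count from both sides, and whether arrays of the same number share anything was not tested.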
